A study of Mus musculus with 27 samples.

Results

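Complement genes of cardiac fibroblasts were examined across 5 ages. The set was C2, C3, C4b, C7, Cfb, Cfd, Cfi, Masp1, and Serping1, chosen by symbol with their fibroblast levels in these data already known, and Cfi was chosen because it was lost in fibroblasts after birth. Of these 9 genes, 8 had counts among the 22855 genes of both tables, and Cfd was not analysed here. RNA-Seq counts were available for cardiac fibroblasts, sorted by flow cytometry for PDGFRα after removal of the atria and valves, and for whole heart, both from C57BL/6 mice. The sorted fibroblasts comprised 3 samples at postnatal day 1, 3 at 4 weeks, and 2 at every age from 14 weeks on, which were 14 weeks, then 1 year, then 1.5 years, and whole heart comprised 3 samples at each of these ages. The labels name no genetic change or treatment in any group, the sort defines fibroblasts by a single surface protein, and the sex of the animals is not in the labels.

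Complement is a cascade of plasma and tissue proteins that tags, lyses, and clears targets. The classical and lectin pathways cleave C4 and C2, the alternative pathway uses factor B and factor D, and all of them converge on cleavage of C3, after which the terminal components assemble a pore. Fluid-phase inhibitors, among them C1 inhibitor and factor I, keep the cascade in check. The liver makes most circulating complement, but fibroblasts and other stromal cells also make several components locally.

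Levels are given as CPM, the count of a gene scaled by the total count of its sample. The totals were between 54615898 and 76758831 in fibroblasts and between 46091271 and 67984404 in whole heart. Pdgfra itself was between 822 and 1419 CPM in the sorted cells and between 24.7 and 65.4 CPM in whole heart. The sum of 9 cardiomyocyte markers was at most 862 CPM in fibroblasts, against at least 57840 in whole heart. The 9 endothelial markers summed to between 804 and 2739 CPM in fibroblasts and between 769 and 1644 CPM in whole heart. At 14 weeks they summed to 2283 to 2589 CPM in fibroblasts, against 769 to 904 CPM in whole heart. In fibroblasts their sum ran from 1144 to 2739 CPM at 4 weeks and from 804 to 2063 CPM at 1.5 years. The part of endothelial cells in the levels of the complement genes was not tested. Xist was at most 0.490 CPM at 14 weeks and 1 year and at least 6.55 CPM at the other ages, and Ddx3y was at most 0.392 CPM at 1.5 years and at least 1.73 CPM elsewhere. Between 4 and 14 weeks, Xist in fibroblasts went from at least 383 CPM to at most 0.0728 CPM and Ddx3y from 25.1 to 50.5 CPM to 79.2 to 86.4 CPM. Age and the sex makeup of the samples therefore cannot be told apart in any comparison other than that of 14 weeks with 1 year. In bulk RNA, fewer cells of a type and less RNA per cell cannot be told apart either. A gene at 0 in one sample and at 50 or more counts in another of the same age occurred in 5.39% of the gene and age combinations in fibroblasts and in 4.49% in whole heart, so single zeros among low genes were read as values of that library only.

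**Figure D1:**
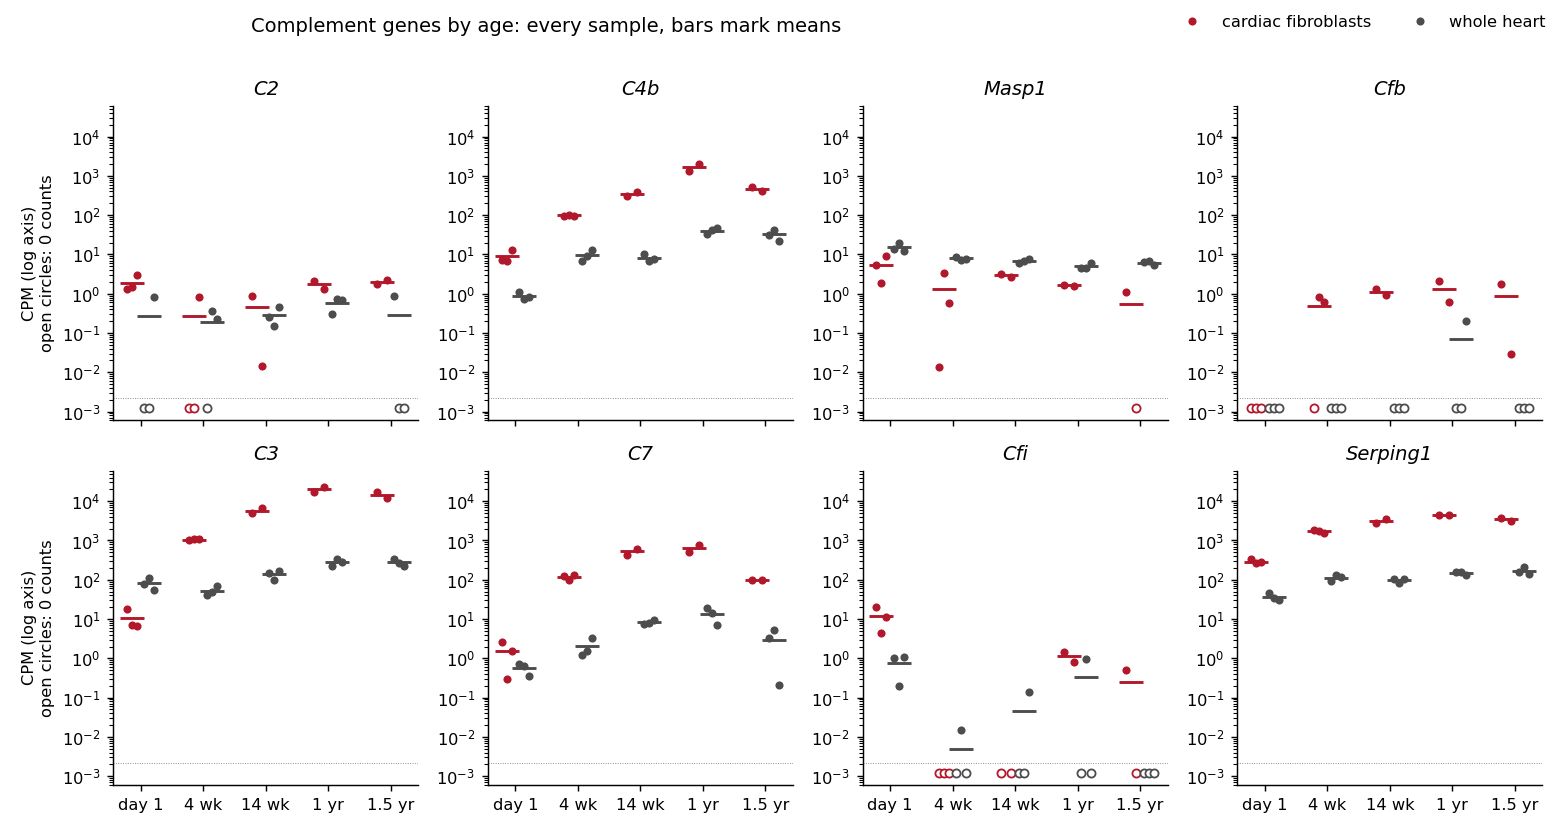
Level of each of the 8 complement genes in CPM (log axis) against age, with 1 point per sample (red, cardiac fibroblasts; grey, whole heart), bars at group means, and open circles at the bottom for samples with 0 counts. In fibroblasts C3 climbed from 6.54 to 18.4 CPM at postnatal day 1 to between 17424 and 23098 CPM at 1 year, whereas Cfi had 0 counts in every 4-week and 14-week sample.

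In CPM, which does not account for gene length, C2, Cfb, Cfi, and Masp1 were below 20 in every sample of either tissue. C3 (chromosome 17, 57203970 to 57228136, minus strand of GRCm38) encodes the central component on which all pathways converge. C7 (chromosome 15, 4988762 to 5063740, minus strand) encodes a terminal component that anchors the pore to the membrane. These genes had the largest rises from postnatal day 1 to 4 weeks among the members with counts at birth, and they are the members for which the RefSeq promoter table of GRCm38.p6 held an entry. Their promoters are shown for that reason, from 250 bases before to 50 bases after the transcription start, 5′ to 3′ on the coding strand. The C3 window is chr17:57228087-57228386 and the C7 window is chr15:5063724-5064023, both on the minus strand. Capitals mark a match to TTCNNNGAA, the spacing bound by STAT factors.
C3: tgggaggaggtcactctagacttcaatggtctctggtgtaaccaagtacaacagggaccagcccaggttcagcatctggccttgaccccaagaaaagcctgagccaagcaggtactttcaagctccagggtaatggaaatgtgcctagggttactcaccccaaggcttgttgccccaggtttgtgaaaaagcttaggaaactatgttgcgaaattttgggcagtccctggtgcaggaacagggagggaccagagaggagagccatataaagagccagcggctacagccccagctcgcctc
C7: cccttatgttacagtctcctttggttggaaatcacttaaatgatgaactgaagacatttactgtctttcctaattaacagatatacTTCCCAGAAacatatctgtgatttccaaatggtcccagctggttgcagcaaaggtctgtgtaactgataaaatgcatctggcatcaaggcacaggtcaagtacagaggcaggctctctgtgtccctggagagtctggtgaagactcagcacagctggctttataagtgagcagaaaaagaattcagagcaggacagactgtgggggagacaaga
The C7 window held 1 match, whose first base lay at -164 from the start, and the C3 window held none. Among 32851 promoters of the same length searched on both strands, 8.30% held this motif. The interferon-stimulated response element was present in neither window and in 3.44% of all promoters. GC content was 53.3% in the C3 window and 44.0% in the C7 window.

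In the classical pathway, C4b (chromosome 17, 34728380 to 34743882, minus strand) encodes the classical form of C4, whose cleavage product attaches to targets. Its fibroblast samples had 7.09, 6.62, and 12.9 CPM at postnatal day 1, 94.7, 104, and 97.6 at 4 weeks, 299 and 383 at 14 weeks, 1327 and 2021 at 1 year, and 530.1 and 413 at 1.5 years. Each age up to 1 year lay entirely above the one before, and both 1.5-year samples lay below both 1-year samples. The C4b mean was 189-fold higher at 1 year than at postnatal day 1 and 3.55-fold higher at 1 year than at 1.5 years. Of the 65-base windows of the longest C4b transcript, 27.5% also occur in other genes, most of all in its near-identical neighbor C4a. Part of the C4b reads therefore depends on how such reads were counted. Whole heart had 1.10, 0.729, and 0.846 CPM at postnatal day 1, 6.98, 9.08, and 13.02 at 4 weeks, 10.5, 6.86, and 7.67 at 14 weeks, 32.9, 42.0, and 45.8 at 1 year, and 32.1, 42.5, and 22.3 at 1.5 years. The hearts thus fell into levels near 1 CPM at birth, overlapping levels at 4 and 14 weeks, and overlapping higher levels at both older ages.

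C2 (chromosome 17, 34862604 to 34898265, minus strand) encodes the protease subunit of the classical C3 convertase, and it was low throughout. Its fibroblast levels were 1.35, 1.46, and 2.93 CPM at postnatal day 1, 0, 0, and 0.835 at 4 weeks, 0.879 and 0.0146 at 14 weeks, 2.14 and 1.33 at 1 year, and 1.81 and 2.20 at 1.5 years. All 4-week and 14-week samples lay below all samples of the other ages, but 2 of these 5 samples had 0 counts and 1 had a single count. C2 also shares 56.6% of its 65-base windows with other genes, so its level is uncertain. Most of all they are shared with the read-through locus Gm20547, which was not analysed here. In whole heart C2 was at most 0.885 CPM in any sample and at 0 in 5 of 15.

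Masp1 (chromosome 16, 23449417 to 23520815, minus strand) encodes a lectin pathway protease. Its levels in fibroblasts were 5.42, 1.87, and 9.08 CPM at postnatal day 1, 0.0136, 3.36, and 0.579 at 4 weeks, 3.19 and 2.66 at 14 weeks, 1.68 and 1.59 at 1 year, and 1.09 and 0 at 1.5 years. The 1-year and 1.5-year samples all lay below all samples of postnatal day 1, and the 4-week samples ran from 0.0136 to 3.36 CPM. In whole heart Masp1 had 13.7, 19.8, and 12.2 CPM at postnatal day 1 and between 4.41 and 8.73 CPM at the later ages. Whole heart exceeded fibroblasts in every sample at every age, by 2.79-fold in the means at postnatal day 1 and 11.3-fold at 1.5 years. Masp1 was therefore not enriched in the sorted fibroblasts, against the name of the set.

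In the alternative pathway, Cfb (chromosome 17, 34856374 to 34862518, minus strand) encodes factor B, the protease subunit of its C3 convertase. Cfb had 0 counts in all 3 fibroblast samples of postnatal day 1, then 0, 60, and 46 counts at 4 weeks, 71 and 65 at 14 weeks, 158 and 40 at 1 year, and 115 and 2 at 1.5 years. A count of 0 allows up to 3 counts in a library, and against that floor the mean CPM was at least 25.3-fold higher at 14 weeks than at postnatal day 1. In whole heart 14 of 15 samples had 0 counts and 1 sample of 1 year had 11. Cfb lies just downstream of C2, and 81.3% of its windows are shared with other genes, most of all Gm20547, so its level is uncertain too. Floors and the counting error they describe do not include variation between animals.

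For C3, fibroblast samples had 18.4, 6.89, and 6.54 CPM at postnatal day 1, 1034, 1065, and 1067 at 4 weeks, 4985 and 6538 at 14 weeks, 17424 and 23098 at 1 year, and 17082 and 12202 at 1.5 years. The first 4 ages did not overlap, and the 1.5-year samples were both below the 1-year samples. The mean rose 99.5-fold from postnatal day 1 to 4 weeks and another 5.46-fold to 14 weeks, and at 1.5 years it was 1381-fold above postnatal day 1. In whole heart C3 took another course, with 78.0, 112, and 55.3 CPM at postnatal day 1, 42.1, 48.7, and 68.4 at 4 weeks, 148, 98.7, and 169 at 14 weeks, 229, 332, and 283 at 1 year, and 333, 274, and 224 at 1.5 years. Postnatal day 1 and 4 weeks overlapped there, and every 1-year and 1.5-year sample exceeded every younger one.

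At postnatal day 1 the order of the tissues was the opposite of that at every later age for C3. All 3 whole-heart samples were above all 3 fibroblast samples, 7.70-fold in the means, whereas fibroblasts were 19.9-fold higher at 4 weeks, 41.6-fold at 14 weeks, 72.0-fold at 1 year, and 52.9-fold at 1.5 years. The 8 measured epicardial and mesothelial markers summed to between 92.1 and 167 CPM in whole heart at postnatal day 1 and to between 12.6 and 34.1 CPM in the fibroblasts of that age, in which Msln and Muc16 were at 0. Upk3b was between 26.3 and 52.6 CPM in those hearts and at most 0.776 CPM in those fibroblasts. Wt1 of the same list overlapped between the tissues, at 17.7 to 18.7 CPM in those hearts and 10.7 to 27.3 CPM in those fibroblasts. The part of epicardial and mesothelial cells in the C3 level of newborn heart was not tested.

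C7 rose and then fell. Fibroblast levels were 2.62, 0.291, and 1.57 CPM at postnatal day 1, 125, 100.2, and 129.7 at 4 weeks, 427 and 623 at 14 weeks, 509 and 771 at 1 year, and 98.2 and 100.4 at 1.5 years. The 14-week and 1-year samples overlapped, and the 1.5-year samples lay at the lower edge of the 4-week range, below every 14-week and 1-year sample. The mean at 1 year was 428-fold above postnatal day 1 and 6.45-fold above 1.5 years. Whole heart followed a similar course at far lower levels, with 0.717, 0.638, and 0.363 CPM at postnatal day 1, 1.24, 1.57, and 3.37 at 4 weeks, 7.54, 7.79, and 9.25 at 14 weeks, 19.6, 14.1, and 7.14 at 1 year, and 3.31, 5.23, and 0.206 at 1.5 years. All 1.5-year hearts were below all 14-week and 1-year hearts for C7.

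The inhibitors went in opposite directions after birth. Serping1 (chromosome 2, 84765387 to 84775444, minus strand) encodes C1 inhibitor, which inactivates the proteases of the classical and lectin pathways. Its fibroblast levels were 329.5, 267, and 275 CPM at postnatal day 1, 1811, 1767, and 1565 at 4 weeks, 2815 and 3441 at 14 weeks, 4532 and 4562 at 1 year, and 3800.1 and 3199 at 1.5 years. Its mean was 5.90-fold higher at 4 weeks than at postnatal day 1. Whole heart had 46.3, 33.7, and 31.1 CPM at postnatal day 1, 92.5, 129.5, and 117 at 4 weeks, 107, 83.4, and 107 at 14 weeks, 155, 158, and 135 at 1 year, and 154, 206, and 137 at 1.5 years.

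Cfi (chromosome 3, 129835884 to 129875332, plus strand) encodes factor I, the protease that inactivates the active fragments of C3 and C4. Fibroblasts had 1490, 293, and 713 counts at postnatal day 1, which are 19.9, 4.49, and 11.2 CPM, and the 3 samples of 4 weeks and the 2 of 14 weeks each had 0. At 1 year 112 and 54 counts were found (1.46 and 0.817 CPM), and at 1.5 years 34 and 0. Cfi was thus present again at low level in 3 of the 4 oldest fibroblast samples, all of them under the lowest newborn sample. Taking 3 counts per library as the floor, the mean fell at least 292-fold to 4 weeks, lay at least 241-fold under the newborn mean at 14 weeks, and was 10.4-fold lower at 1 year. Whole heart had 67, 13, and 73 counts at postnatal day 1, 0, 1, and 0 at 4 weeks, 0, 0, and 8 at 14 weeks, 0, 57, and 0 at 1 year, and 0 in all 3 samples of 1.5 years. These values chose Cfi and are given as a description.

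**Figure D2:**
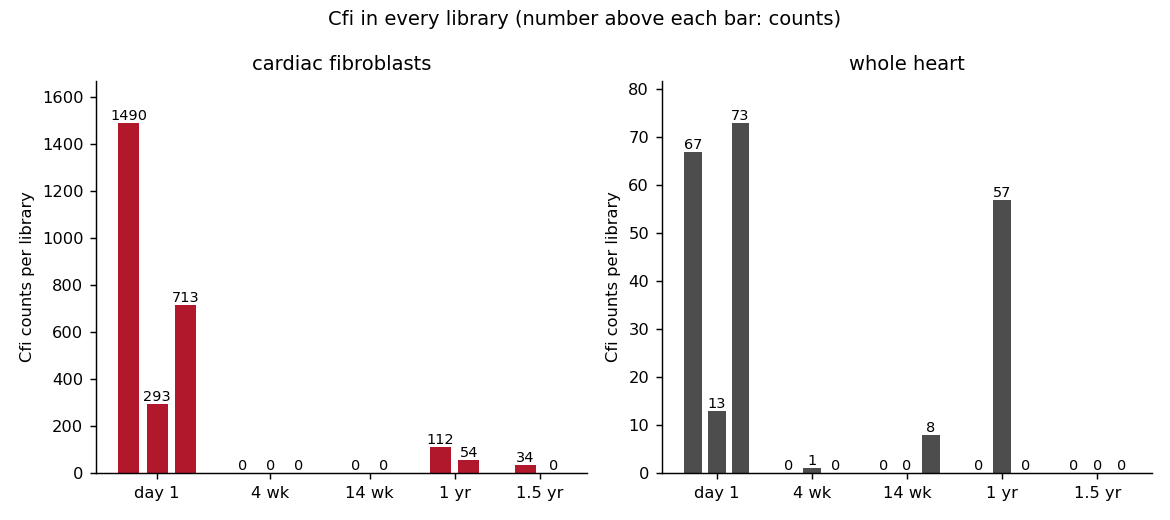
Bars show the number of reads counted on Cfi in each library, grouped by age (red, cardiac fibroblasts; grey, whole heart). The 3 newborn fibroblast samples held 1490, 293, and 713 counts, all 4-week and 14-week fibroblast samples held 0, and 112, 54, and 34 counts were found in 3 of the 4 oldest.

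To order the genes by level, CPM was divided by exon length in kilobases. At postnatal day 1 Serping1 led with a mean of 125 CPM per kb, followed by Cfi at 5.35, C3 at 2.06, C4b at 1.56, and C7 at 0.558. At 4 weeks the order was Serping1 at 737, C3 at 205, C7 at 44.3, and C4b at 17.3 CPM per kb. Serping1 and C3 overlapped at 14 weeks, at 1211 to 1480 and 969 to 1271 CPM per kb, and C3 led at 1 year with 3940 against 1956. C4b and C7 also overlapped at 1 year, at 233 to 355 and 190 to 288 CPM per kb. At 1.5 years the order was C3 at 2847, Serping1 at 1505, C4b at 82.8, and C7 at 37.1 CPM per kb. On this scale Cfi was second among the members in newborn fibroblasts and at 0 by 4 weeks.

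Changes between ages were tested with edgeR's quasi-likelihood test, fitted per tissue across all genes that passed its filter on low counts (18759 in fibroblasts, 17995 in whole heart). All 8 measured members passed in fibroblasts and 7 in whole heart, where Cfb did not. A change was called at an adjusted p under 0.05, fold changes are log2 values after TMM scaling, and each standard error (SE) was obtained by dividing the absolute fold change by √F. The paper's methods give 3 animals per age and 3 fibroblast sets from different hearts, whereas the labels hold 2 fibroblast samples at each age from 14 weeks on. The labels name no animal for any sample, so p values measure the spread between these samples. Fibroblast contrasts with postnatal day 1 were used to choose the genes and carry no p value here. Nothing is read from the counts of members called in them. Fibroblast levels at the later ages were also known when the genes were chosen. The p values and counts of members called among those ages do not allow for that choice and serve as descriptions. From postnatal day 1 to 4 weeks the log2 fold change was 6.73 (SE 0.40) for C3, 6.39 (SE 0.54) for C7, 3.56 (SE 0.26) for C4b, and 2.65 (SE 0.14) for Serping1, with 5 of 8 members past the threshold beside 15.5% of all genes. At 1.5 years against postnatal day 1 it was 10.65 (SE 0.48) for C3, 6.26 (SE 0.55) for C7, 5.95 (SE 0.30) for C4b, and 3.80 (SE 0.15) for Serping1, with 4 of 8 past it beside 16.3% of all genes. The 9 cardiomyocyte markers summed to between 770 and 862 CPM in newborn fibroblasts and to between 80.1 and 223 CPM at 4 weeks, and the 10 fibroblast markers to between 37636 and 45722 CPM and between 59319.9 and 72932 CPM, and their part in the rise was not tested.

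From 4 to 14 weeks in fibroblasts, C3, C4b, C7, and Serping1 all rose, 4 of 8 members beside 1.79% of all genes that rose. The log2 fold change was 2.39 for C3 (SE 0.35, adjusted p = 0.00312), 1.73 for C4b (SE 0.26, adjusted p = 0.00353), 2.10 for C7 (SE 0.46, adjusted p = 0.0258), and 0.81 for Serping1 (SE 0.14, adjusted p = 0.0084). Masp1, Cfb, and C2 had log2 values of 1.10, 1.17, and 0.59 with adjusted p values between 0.882 and 0.979. Xist and Ddx3y changed over this step too, and age cannot be told apart from sex in it. The C3 and C4b calls held with any 1 sample left out. The C7 call was lost without replicate 4 or 6 of 14 weeks (adjusted p = 0.0792 and 0.221) or replicate 1 or 2 of 4 weeks (0.0842 and 0.0906), and the Serping1 call without replicate 6 of 14 weeks (0.153), which left 2 members. Where a group of 2 lost a sample, the other was assumed to vary like the other groups.

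Between 14 weeks and 1 year, C3, C4b, and Serping1 rose further, 3 of 8 members beside 1.31% of all genes. C4b changed most, by 2.47 (SE 0.30, adjusted p = 0.00243), with C3 at 1.99 (SE 0.40, adjusted p = 0.0261) and Serping1 at 0.72 (SE 0.16, adjusted p = 0.0399). C7 was at 0.46 (SE 0.51, adjusted p = 0.821). C4b was called with any sample left out. C3 was not called without either 14-week sample (adjusted p = 0.285 and 0.128) or either 1-year sample (0.0858 and 0.11), and Serping1 was not called without any of those 4 samples, replicate 1 or 2 of 4 weeks, or replicate 3 of postnatal day 1, at adjusted p values between 0.0534 and 0.478. Without any 1 of the 14-week or 1-year samples, C4b alone remained of the 3.

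Between 1 and 1.5 years C4b fell by 1.82 on the log2 scale (SE 0.29, adjusted p = 0.0305), 1 of 8 members beside 0.144% of all genes that fell. C7 was at -2.68 (SE 0.54, adjusted p = 0.0826), C3 at -0.46 (SE 0.38, adjusted p = 0.845), and Serping1 at -0.38 (SE 0.16, adjusted p = 0.699). The C4b call was lost without replicate 5 of 1.5 years (adjusted p = 0.276), replicate 5 of 1 year (0.147), or replicate 1 of 4 weeks (0.0606), and C7 was called without replicate 1 or 2 of postnatal day 1 (0.0369 and 0.00223). Both 1.5-year samples were lower than both 1-year samples for all of C3, C4b, C7, and Serping1. Age cannot be told apart from sex in the comparisons of 1.5 years with the other ages.

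Against 14 weeks, C7 at 1.5 years fell by 2.22 (SE 0.53, adjusted p = 0.0467), 1 of 8 members beside 0.816% of all genes that fell. C3 was at 1.53 (SE 0.39, adjusted p = 0.0623), C4b at 0.65 (SE 0.29, adjusted p = 0.339), and Serping1 at 0.34 (SE 0.16, adjusted p = 0.366). The C7 call was near the threshold and was lost in 9 of 12 fits with 1 sample left out, namely without either sample of 14 weeks, 1 year, or 1.5 years, replicate 1 or 2 of 4 weeks, or replicate 3 of postnatal day 1, at adjusted p values between 0.0567 and 0.259. C3 was called without any 1 sample of postnatal day 1 (adjusted p = 0.00276, 0.0495, and 0.0452).

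Over the 4 ages after postnatal day 1 in a single test, C3 (adjusted p = 1.48e-04), C4b (2.62e-05), C7 (0.00746), and Serping1 (3.17e-04) differed, 4 of the 7 members other than Cfi, beside 6.02% of all genes. Cfi was chosen for its zeros at these ages and carries no test among them. C2, Cfb, and Masp1 had adjusted p values between 0.745 and 0.997. The 4 calls held with any 1 sample left out.

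**Figure D3:**
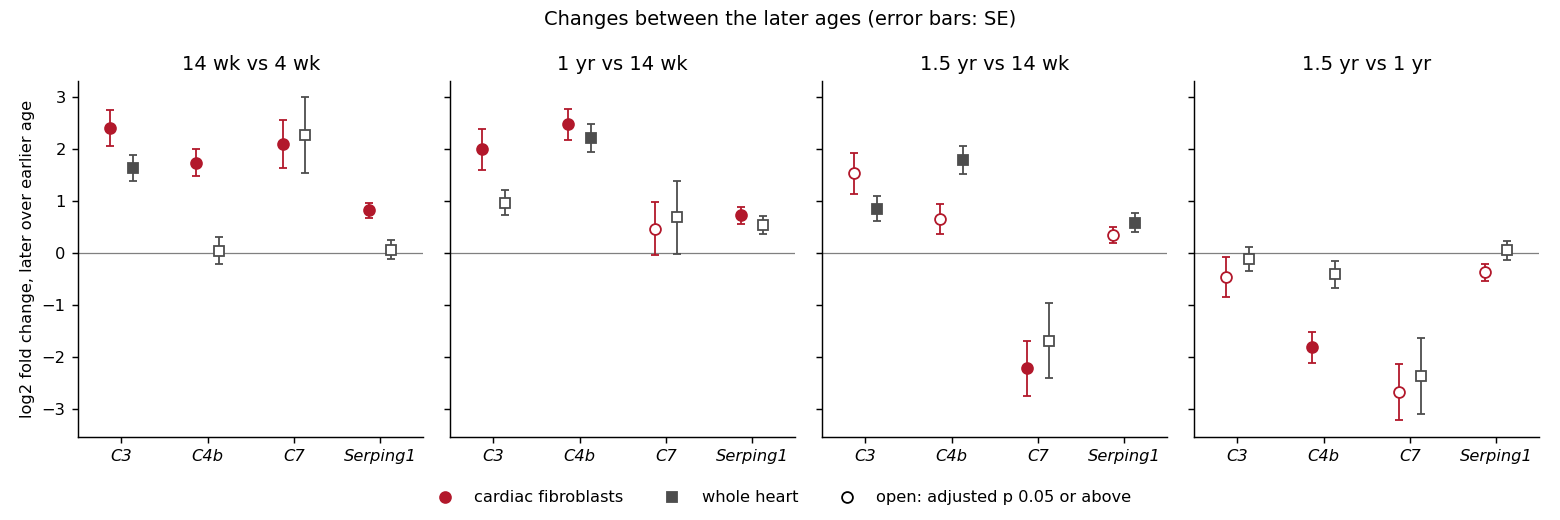
Log2 fold change with its SE for C3, C4b, C7, and Serping1 in 4 comparisons of ages after postnatal day 1 (circles, cardiac fibroblasts; squares, whole heart; filled symbols, adjusted p under 0.05). All 4 genes rose in fibroblasts from 4 to 14 weeks, and at 1.5 years against 1 year the fibroblast values of all 4 were below 0, with C4b at -1.82 the only one called.

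Whole heart was measured in separate libraries, though the study took the fibroblasts out of hearts that were themselves sequenced. The genes were chosen with earlier results of these data known. The p values and counts of members called in whole heart do not allow for that choice and serve as descriptions. From postnatal day 1 to 4 weeks 3 of 7 members rose, beside 12.1% of all genes. They were C4b by 3.93 (SE 0.30, adjusted p = 1.02e-07), Serping1 by 2.11 (SE 0.19, adjusted p = 6.66e-07), and C7 by 2.33 (SE 0.75, adjusted p = 0.0392), whereas C3 was at -0.11 (SE 0.24, adjusted p = 0.81). The C7 call was lost without any 1 of the 3 samples of postnatal day 1 or 14 weeks, replicate 3 of 4 weeks, or replicate 1 or 2 of 1 year, at adjusted p values between 0.0531 and 0.146, and with the total count as the only scaling (0.0849). Masp1 was at -0.42 (SE 0.29, adjusted p = 0.347), and with the total count as the only scaling it was called at -0.95 (adjusted p = 0.0266), where the median of all genes moved by -0.51. Only C3 rose from 4 to 14 weeks, by 1.63 (SE 0.24, adjusted p = 0.0021), 1 of 7 members beside 0.756% of all genes. C7 was at 2.26 there (SE 0.73, adjusted p = 0.159) and was called without replicate 3 of 1.5 years (0.0141), which made 2 members. From 14 weeks to 1 year only C4b rose, by 2.20 (SE 0.27, adjusted p = 0.00132), 1 of 7 beside 0.389% of all genes. C3 followed with an adjusted p of 0.0663 and was called without replicate 3 of 1.5 years (0.046), which again made 2.

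At 1.5 years against 14 weeks in whole heart, C3 by 0.85 (SE 0.24, adjusted p = 0.027), C4b by 1.79 (SE 0.26, adjusted p = 8.35e-04), and Serping1 by 0.58 (SE 0.18, adjusted p = 0.0447) were higher, 3 of 7 members beside 4.91% of all genes. The C3 call was lost without replicate 1 or 2 of 14 weeks (adjusted p = 0.0744 and 0.126) or of 1.5 years (0.0729 and 0.0503), and the Serping1 call without any 1 sample of 14 weeks, replicate 2 or 3 of 1.5 years, replicate 1 or 2 of 1 year, or replicate 3 of 4 weeks, at adjusted p values between 0.0512 and 0.182. Without replicate 1 or 2 of 14 weeks or replicate 2 of 1.5 years, C4b alone remained, 1 of 7. C7 was at -1.69 (adjusted p = 0.135). Between 1 and 1.5 years edgeR called 0 of 7 members beside 2.66% of all genes, 2 had an unadjusted p under 0.05, and DESeq2 called 1, which was C7 at a log2 fold change of -2.34 (adjusted p = 0.0175). Between newborn and 1.5-year hearts, 4 of 7 members rose beside 15.6% of all genes, with log2 fold changes of 5.76 for C4b (SE 0.32, adjusted p = 4.04e-09), 2.90 for C7 (SE 0.76, adjusted p = 0.00801), 2.75 for Serping1 (SE 0.19, adjusted p = 3.46e-08), and 2.37 for C3 (SE 0.25, adjusted p = 2.48e-06). In a single test over all 5 ages C3, C4b, C7, and Serping1 differed, beside 34.3% of all genes, at adjusted p values between 1.17e-08 and 5.47e-04, and edgeR did not call Cfi (0.129) or Masp1 (0.118). Masp1 was called over all ages by DESeq2 (adjusted p = 0.0137) and with the total count as the only scaling (0.00196). For 1.5-year against newborn hearts Masp1 was at -0.70 (SE 0.29, adjusted p = 0.072) with edgeR, and it was called at -0.67 with DESeq2 (0.0239) and at -1.31 with the total count as the only scaling (0.00237), where the median of all genes moved by -0.60.

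An interaction of tissue and age, fitted to all 27 samples and 20650 genes and chosen after seeing the data, tested each step after postnatal day 1 for a difference between fibroblasts and whole heart. The study took fibroblasts out of hearts that were themselves sequenced, the labels do not link the samples, and the fit treated all 27 as independent, so the part of shared animals was not tested. C4b from 4 to 14 weeks was the only member called, at 1.69 higher on the log2 scale in fibroblasts than in whole heart (SE 0.38, adjusted p = 0.0353), beside 0.692% of all genes. In fibroblasts C4b rose by 1.73 there, and in whole heart its log2 fold change was 0.04 (adjusted p = 1.00). Age cannot be told apart from sex in this step in either tissue. For C3 the same difference was 0.76 (adjusted p = 0.577), and for Serping1 it was 0.75 (adjusted p = 0.248). No member was called in the interaction for 14 weeks to 1 year (beside 1.72% of all genes), 14 weeks to 1.5 years (2.71%), or 1 to 1.5 years (0.324%). The members' unadjusted p values under 0.05 there numbered 1, 2, and 1 in that order. Cfi was 1 of the 2 for 14 weeks to 1.5 years, and no test is read for it.

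**Figure D4:**
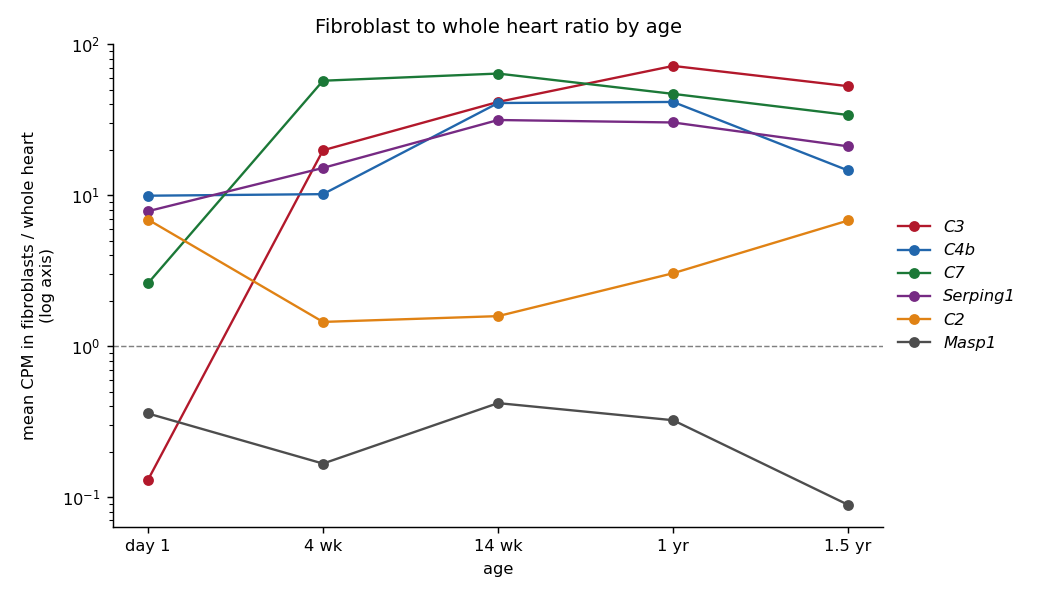
Ratio of the mean CPM of cardiac fibroblasts to that of whole heart (log axis) at each age for C3, C4b, C7, Serping1, C2, and Masp1, with a dashed line at equal levels. C3 went from below the line at postnatal day 1, where whole heart was 7.70-fold higher, to 72.0 above it at 1 year, and Masp1 stayed below the line at every age.

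C4b and Serping1 were higher in all fibroblast samples than in all hearts at every age, and C7 from 4 weeks on. The fibroblast mean of C4b was 9.94-fold that of whole heart at postnatal day 1, 10.2-fold at 4 weeks, 40.9-fold at 14 weeks, 41.6-fold at 1 year, and 14.6-fold at 1.5 years. Serping1 had ratios of 7.84, 15.2, 31.6, 30.4, and 21.1 at these ages. C7 overlapped between the tissues at postnatal day 1, with a ratio of 2.61, and reached 57.5, 64.1, 47.0, and 34.1 later. C2 was higher in all fibroblast samples than in all hearts at postnatal day 1 (6.91-fold), 1 year (3.05-fold), and 1.5 years (6.81-fold) and overlapped at 4 and 14 weeks. Cfi at postnatal day 1 was 15.3-fold higher in fibroblasts. These ratios describe the name of the set and were not tested, and genes of the mitochondrial genome, which took 10.8% to 34.5% of the counts in whole heart and 1.74% to 9.18% in fibroblasts, enter the totals behind them. With TMM scaling over all samples the ratios at 14 weeks were 26.4 for C3, 25.9 for C4b, 40.5 for C7, and 19.97 for Serping1.

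Across the 12 fibroblast samples C3, C4b, C7, and Serping1 moved closely together, as a description over samples of 5 ages that share the age effect. The Pearson correlation of log2 CPM was 0.997 for C3 with Serping1, 0.97 for C3 with C4b, and 0.94 for C3 with C7, while C3 with Cfi was at -0.58 and Cfi with Masp1 at 0.53. Among genes outside the set, those most like C3 were C1s1 (0.999), C1ra (0.996), and Fbln1 (0.995), those most like Serping1 were Fxyd5, Wisp2, and Fbln1 (each 0.995), those most like C4b were Ltbp1 (0.984), Rnase4 (0.983), and Lamp1 (0.983), and those most like C7 were Ace (0.988), Ccdc80 (0.986), and Itgbl1 (0.982). Cfi was closest to Cabyr (0.971), Josd1 (0.946), and Mfge8 (0.942). The low members were closest to AI429214 (0.939), Prr15 (0.934), and Gm6556 (0.928) for Masp1, to Chd5 (0.955) and Exd1 (0.934) for Cfb, and to Gm10221 (0.956), Rbpms (0.916), and Gm10138 (0.904) for C2, in which counts of 0 weigh heavily.

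Of 49 other complement genes, 38 had counts, and they include the initiating proteases, receptors, and regulators. From postnatal day 1 to 4 weeks in fibroblasts, 8 rose and 1 fell of 38, beside 15.5% of all genes in either direction, at a median log2 fold change of 1.59. Among the largest rises were the C1 proteases C1s1 by 4.15 (SE 0.26, adjusted p = 4.28e-07) and C1ra by 3.49 (SE 0.19, adjusted p = 1.74e-07), which have near-identical copies in C1s2 and C1rb. C1qbp, encoding a mitochondrial protein that binds C1q, was the one that fell, by 0.61 (adjusted p = 0.0349).

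From 4 to 14 weeks 4 of these 38 rose and 5 fell in fibroblasts, beside 2.08% of all genes that fell. Among those that rose were C1ra by 1.66, C1s1 by 1.75, and Csmd1, which had 0 counts in all 4-week samples. C1qa, C1qb, and C1qc, the chains of C1q, and the anaphylatoxin receptors C3ar1 and C5ar1 were lower, at log2 fold changes of -4.05, -4.11, -4.41, -4.44, and -3.91, and the genes of this step were named after their values were seen. The 10 macrophage markers summed to between 282 and 530 CPM in fibroblasts at 4 weeks, 80.3 to 94.0 at 14 weeks, 36.9 to 39.2 at 1 year, and 93.9 to 100.5 at 1.5 years, and their part in the fall of these 5 genes was not tested. The members C3, C4b, C7, and Serping1 rose over the same step. In the 3 comparisons among the 3 oldest ages, edgeR called 0 of the 38. At an unadjusted p under 0.05 there were 5 (14 weeks to 1 year), 6 (14 weeks to 1.5 years), and 6 (1 to 1.5 years). Of all genes, 1.31% rose from 14 weeks to 1 year, 0.816% fell from 14 weeks to 1.5 years, and 0.144% fell from 1 to 1.5 years.

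In whole heart 11 of 33 tested other complement genes rose from postnatal day 1 to 4 weeks and none fell, beside 12.1% of all genes that rose, led by Vtn at a log2 fold change of 4.85, C1qc at 2.80, and C1qa at 2.74. Vtn encodes vitronectin, an inhibitor of the terminal complex. At 1.5 years against 14 weeks 8 of 33 were higher, beside 4.91% of all genes, led by Fcna (1.90), C5ar1 (1.81), and Cfp (1.68), which encode a ficolin, the C5a receptor, and properdin. Macrophage markers in whole heart summed to between 87.4 and 104 CPM at postnatal day 1, 289 to 394 at 4 weeks, 183 to 234 at 14 weeks, and 341 to 458 at 1.5 years, and their part in these changes was not tested.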

How the data were processed

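RNA-Seq was measured in 12 samples of sorted cardiac fibroblasts and 15 of whole heart, grouped by tissue and age from the sample labels. The authors mapped single-end reads to mm10 with STAR 2.5.3a and deposited the resulting raw counts per gene, without normalization. The annotation and strand setting behind the counts are not given in the sources used here. The genes and lists were chosen with earlier results of these data known.

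Each tissue was fitted with edgeR 4.0.16 in R 4.3.3 (filterByExpr by age, TMM scaling, quasi-likelihood F test, age as the only factor), with Benjamini-Hochberg adjusted p values across every gene in the fit. The biological coefficient of variation was 87.9% (fibroblasts) and 71.8% (whole heart). Levels are CPM of the total count, and a floor of 3 counts per library covers counting error only. No 2 samples of an age held identical counts. The tests were checked on simulated data.

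All members are named. Of the other complement genes, up to 3 of the largest called rises and falls at 4 weeks against postnatal day 1 and at 1.5 years against 14 weeks are named, and for each member the 3 genes with the highest Pearson correlation of log2 CPM (prior count of 2) over the fibroblast samples. Gene positions, exon lengths, and windows of 65 bases shared between transcripts came from GENCODE M21 on GRCm38, and promoters from RefSeq.

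The alternatives were DESeq2 1.42.0, its size factors or the total count as scaling, the low-count filter removed or set at 10 counts in every sample, a fit of only 2 ages, a block for the replicate number, and leaving out each sample in turn. Totals without the mitochondrial genome, the 3 later ages alone, and the interaction of tissue and age were chosen after seeing the data. Python 3.11.15 with pandas 2.3.3, numpy 2.4.6, and matplotlib 3.10.9 was used for tables and plots. Flow cytometry and DNA methylation were not analysed here. Some genes that the naming rule selects are not reported here.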

Additional observations from a re-analysis of the deposited data

Results flagged for a closer look

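The change of C4b from 4 to 14 weeks differed between the tissues by an interaction test in edgeR over all 27 samples, with a log2 fold change 1.69 higher in fibroblasts than in whole heart (adjusted p = 0.0353). The test was chosen after seeing the data, and it treated the samples of both tissues as independent although they may share animals. Age cannot be told apart from sex in this step. In fibroblasts the mean went from 98.7 to 341 CPM, and all 14-week samples were above all 4-week samples. In whole heart it went from 9.69 to 8.34 CPM, and the ages overlapped. C4b shares 27.5% of its windows with other genes, most of all C4a, so the C4b level depends on how reads from those windows were counted. The counted C4a means were 0.883 CPM at 4 weeks and 0.679 CPM at 14 weeks in fibroblasts. In whole heart they were 0.532 and 0 CPM. The part of this sharing in the difference was not tested.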

How the results depend on the processing

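Among results with a test or value recomputed under alternatives other than leaving out a sample, 94 of the counts of members called stayed within 1.5 times and 18 did not. For 1.5 years against 14 weeks in fibroblasts, the count of 1 became 2 with no filter, with at least 10 counts in every sample, with only the 2 ages compared, and with the 3 later ages alone, and 3 with the replicate block and with DESeq2. For 1.5 years against 1 year in fibroblasts, the count of 1 became 2 with no filter, 10 counts, the replicate block, the 3 later ages alone, and DESeq2. In whole heart, the count from 4 to 14 weeks of 1 became 2 with only the 2 ages and with DESeq2, that from 14 weeks to 1 year became 2 with 10 counts and 3 with only the 2 ages and with DESeq2, and that from 1 to 1.5 years went from 0 to 1 with 10 counts and with DESeq2. The gene that joined in fibroblasts was C3 at 1.5 years against 14 weeks (adjusted p = 0.0236 to 0.0335 without a block and 0.00575 with the replicate block, but 0.00623 with the 3 later ages alone) and C7 at 1.5 years against 1 year (adjusted p = 2.51e-04 with the replicate block and 0.00506 without it in the same ages). Serping1 at 1.5 years against 14 weeks also joined in fibroblasts with the block (log2 fold change 0.57, adjusted p = 0.043), and in whole heart it was lost with it (0.0588). In fibroblasts DESeq2 also passed Cfi at 1.5 years against 14 weeks and at 1 year against 14 weeks. The edgeR fit of only the 2 ages passed it at 1 year against 14 weeks. The counts of members called include Cfi in those fits. No test is read for it, as a gene chosen for its zeros at these ages. Calls were lost for Serping1 in fibroblasts from 14 weeks to 1 year with the total count as the only scaling (0.126), and, with only the 2 ages compared, for C4b in fibroblasts from 1 to 1.5 years (0.0664) and for C7 in whole heart from birth to 4 weeks (0.109) and to 1.5 years (0.108). The cause was not tested.

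The replicate numbers of the labels did not pair the samples, since deviations of same-numbered samples correlated at -0.03 to 0.04 over 7 fibroblast pairs and -0.06 to 0.10 over 30 heart pairs. Fibroblast samples up to 4 weeks shared no number with later ones, so those 2 comparisons across that boundary had no blocked fit. For the other fibroblast comparisons the replicate block gave 3 members from 14 weeks to 1 year and 5 from postnatal day 1 to 4 weeks, as without it.

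With 1 sample left out, the fibroblast counts ran from 5 to 6 from postnatal day 1 to 4 weeks, 2 to 4 for 4 to 14 weeks, 1 to 4 for 14 weeks to 1 year, 0 to 2 for 1.5 years against 14 weeks and against 1 year, 4 to 5 against postnatal day 1, and, Cfi included, 4 to 5 over the later ages. In whole heart they ran from 2 to 3, 1 to 2, 1 to 2, 1 to 3, 0 to 0, and 4 to 4 in the same order. Over all ages they stayed at 4. All of these counts, in either tissue, include Cfi wherever a fit passed it.

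Directions changed only for genes that were not called. With the total count as the only scaling, which moved the median of all genes by -0.24 from 4 to 14 weeks in whole heart, C4b, Masp1, and Serping1 were at -0.22, -0.18, and -0.19 there, and C2 was at 0.059 for 1.5 years against 14 weeks. With the replicate block, Masp1 was at 1.28 in fibroblasts from 14 weeks to 1 year, and C2 in whole heart was at 0.82 from postnatal day 1 to 4 weeks and at 0.41 from 14 weeks to 1.5 years. With 1 sample left out, log2 fold changes in fibroblasts ran from -4.16 to 7.86 for C2 at 4 to 14 weeks, -0.11 to 0.62 for C2 at 1 to 1.5 years, -0.73 to 1.08 for Cfb at 14 weeks to 1 year, -5.02 to 0.80 at 14 weeks to 1.5 years, and -5.46 to 0.56 at 1 to 1.5 years. In whole heart they ran from -0.86 to 6.53 for C2 and -0.33 to 0.14 for C3 at postnatal day 1 to 4 weeks, and from 4 to 14 weeks from -0.13 to 0.26 for C4b, -1.82 to 4.79 for Cfi, -0.0165 to 0.193 for Masp1, and -0.0258 to 0.165 for Serping1. The other such ranges in whole heart were -4.83 to 7.64 for Cfi at 14 weeks to 1 year, -7.42 to 0.50 for C2 at 14 weeks to 1.5 years, -0.271 to 0.0499 for C3 and -0.10 to 0.13 for Serping1 at 1 to 1.5 years, and -6.68 to 7.30 for C2 between newborn and 1.5-year hearts.

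Tissue ratios kept their direction with TMM over all samples and without the mitochondrial genome, except C2 at 14 weeks (0.99 with TMM), and at 14 weeks those of C3, C4b, C7, and Serping1 became 26.4, 25.9, 40.5, and 19.97 with TMM. Groups of 2 and 3 samples, and counts of 0 for C2, Cfb, Cfi, and Masp1, limit what can be called.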

Other observations

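Lists of genes that respond to signals known to act on complement genes were described by their counts. Of 19 interleukin 6 and NF-κB response genes, 10 rose in fibroblasts from 14 weeks to 1 year, beside 1.31% of all genes. Their median log2 fold change was 1.45 in that step and 1.56 for 1.5 years against 14 weeks. The medians of all genes were near 0 (-0.0113 and -0.00291). Their summed level was 2389 to 2735 CPM at postnatal day 1, 4005 to 5698 at 4 weeks, 3351 to 3510 at 14 weeks, 7291 to 8541 at 1 year, and 7497 to 8584 at 1.5 years. From 4 to 14 weeks 1 rose and 2 fell, beside 1.79% and 2.08% of all genes, at a median of -0.58. Between 1 and 1.5 years edgeR called 0 of them, beside 0.144% of all genes that fell, and 5 had an unadjusted p under 0.05. C4b fell over the same step. In whole heart, 1 of 18 tested was higher and 1 lower at 1.5 years than at 14 weeks, beside 4.91% of all genes that were higher. The summed level there was between 273 and 434 CPM at every age.

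Of 25 interferon-stimulated genes, 17 rose in fibroblasts and 14 in whole heart from postnatal day 1 to 4 weeks, beside 15.5% of all genes called in either direction in fibroblasts and 12.1% that rose in whole heart. In fibroblasts their median log2 fold change at 1.5 years against 14 weeks was 0.80, against -0.00291 for all genes. The summed level was 628 to 881 CPM at postnatal day 1, 907 to 2094 at 4 weeks, 837 to 877 at 14 weeks, 848 to 872 at 1 year, and 1408 to 1763 at 1.5 years.

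Ahsg, which is a liver secretory gene, was between 27.9 and 51.0 CPM in fibroblasts at postnatal day 1 and between 6.78 and 11.3 CPM at 4 weeks. It was between 38.0 and 41.0 CPM at 14 weeks, 92.9 and 114 at 1 year, and 27.2 and 36.6 at 1.5 years. Apoa1, also a hepatocyte marker, was at most 2.68 CPM in any fibroblast sample. Only 3 of 8 hepatocyte markers had counts, and 6 of 10 adipocyte markers. Adipoq was at 0 in all fibroblast samples of 4 weeks, 14 weeks, and 1 year. In fibroblasts Adrb3 and Pck1 were also at 0 in all samples of 4 weeks, Cidea in those of 14 weeks, and Adrb3 in those of 1 year. The 6 adipocyte markers summed to between 48.9 and 776 CPM in fibroblasts and between 343 and 921 CPM in whole heart. At 14 weeks their sum was 504 to 605 CPM in fibroblasts and 343 to 399 CPM in whole heart. The cell source of these counts was not tested.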
